A study of Mus musculus with 3 samples.

Results

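The cyclins, the cyclin-dependent kinases (Cdks), the Cdk inhibitors, the E2f and retinoblastoma-family proteins and the Myc proteins were taken as a set of 54 cell cycle regulators, and the positions bound by Isl1 at their genes were examined in mouse cardiac progenitor cells (CPCs). A peak was counted for a gene when the deposited peak list named that gene as the closest one, after identical repeated lines had been dropped. By this rule 32 of the 54 genes had at least 1 assigned peak, 22 had none, and 50 of the 14082 distinct peaks in the list belonged to the set. None of the 50 peaks came from a repeated line.

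Isl1 belongs to the LIM-homeodomain family of transcription factors and marks progenitors of the second heart field. Its binding had been mapped by ChIP-Seq, in which DNA pulled down with an antibody against Isl1 is sequenced. The chromatin came from E14 Tg(Nkx2-5-EmGFP) mouse embryonic stem cells, a single line with a fluorescent Nkx2-5 reporter, which had been put through directed cardiac differentiation with growth factors and harvested at day 5. There were 2 Isl1 ChIP replicates and 1 input sample of the same cells without antibody, all of the same genotype and day, with no mutant or untreated arm. Both replicates had been combined into 1 list of common peaks with positions, distances and gene symbols. No replicate error can therefore be attached to any value here, the depth of the libraries is unknown, and the list holds no measure of binding strength. Expression was not measured in these files, so the identity of the cells could not be checked against marker genes. Whether the cells used for ChIP were sorted for the reporter is not given in the sources used here, and other cells of the culture may be included. Intervals in brackets are 95% Wilson intervals and cover counting error alone. For a count of 0, the share said to be allowed is instead 3 divided by the number examined.

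In the cell cycle, D-type cyclins with Cdk4 and Cdk6 phosphorylate the retinoblastoma protein Rb1 and its relatives Rbl1 and Rbl2, the pocket proteins, which then release E2f transcription factors. E2f proteins switch on genes for DNA replication, E-type and A-type cyclins with Cdk2 carry cells through S phase, and B-type cyclins with Cdk1 drive mitosis. Cdk inhibitors hold these kinases in check, and Myc proteins promote growth and entry into the cycle. Cardiac progenitors proliferate, whereas cardiomyocytes leave the cycle as they mature.

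The sequences printed first are those of member promoters in which the peak held a string of the kind E2f proteins bind. The letters TTTCCCGC, TTTCGCGC, TTTGCCGC and TTTGGCGC were sought on both strands and are called E2F strings below, and CCAAT, a common promoter element, was sought in the same way. In the promoter peaks of E2f7, Mycn, Rbl1 and Ccne2 an E2F string lay outside annotated exons and within 330 bp upstream of the transcription start site (TSS). Each stretch below is on the strand of its gene, 5′ to 3′, from mm9, with E2F strings and CCAAT, in either orientation, in capitals. The E2f7 stretch (chr10:110182267-110182494, plus strand, 254 to 27 bp upstream of the TSS in the GENCODE gene annotation) holds 1 E2F string and 2 CCAAT boxes. The Mycn stretch (chr12:12948773-12948855, minus strand, 135 to 53 bp upstream) holds 3 E2F strings, of which the first pair overlaps. The Rbl1 stretch (chr2:157030271-157030318, minus strand, 70 to 23 bp upstream) holds 1 E2F string, and the Ccne2 stretch (chr4:11118174-11118473, plus strand, 327 to 28 bp upstream) holds 1 next to a CCAAT box and another CCAAT box nearer to the TSS. A match is a description of the letters and not a binding site.
E2f7 upstream: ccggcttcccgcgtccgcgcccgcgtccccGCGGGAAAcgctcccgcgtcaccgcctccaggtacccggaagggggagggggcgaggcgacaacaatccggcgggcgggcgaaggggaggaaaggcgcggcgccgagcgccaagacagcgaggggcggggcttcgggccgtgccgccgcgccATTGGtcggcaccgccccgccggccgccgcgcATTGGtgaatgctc
Mycn upstream: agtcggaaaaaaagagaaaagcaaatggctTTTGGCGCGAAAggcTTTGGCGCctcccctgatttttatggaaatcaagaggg
Rbl1 upstream: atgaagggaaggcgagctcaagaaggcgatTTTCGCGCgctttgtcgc
Ccne2 upstream: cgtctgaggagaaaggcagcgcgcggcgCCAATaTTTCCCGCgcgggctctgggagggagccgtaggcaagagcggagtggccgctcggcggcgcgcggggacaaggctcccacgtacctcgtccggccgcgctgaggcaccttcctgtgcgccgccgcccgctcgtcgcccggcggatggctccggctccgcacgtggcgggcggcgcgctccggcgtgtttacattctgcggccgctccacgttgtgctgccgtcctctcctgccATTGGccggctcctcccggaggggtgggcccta

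The widest peak of the set covered Cdkn1c, an imprinted Cdk inhibitor gene. Its central 200 bp (chr7:150646058-150646257, minus strand) lie within the coding sequence and hold 1 CCAAT match, in capitals.
Cdkn1c peak centre: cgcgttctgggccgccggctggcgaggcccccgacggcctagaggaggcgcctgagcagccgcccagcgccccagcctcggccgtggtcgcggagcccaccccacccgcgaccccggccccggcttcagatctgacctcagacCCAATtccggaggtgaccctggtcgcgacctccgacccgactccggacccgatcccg

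The core letters TAAT, which homeodomain proteins bind, were sought in the same way. A peak is called multi-copy below when the median number of times that the 31-mers of its central 200 bp occur in the genome is at least 2, and single-copy otherwise. TAAT lay in the centre of 3 single-copy peaks away from the promoter, which are shown on the strand of the gene with TAAT or its reverse complement in capitals. The windows are chr5:3341244-3341307 (plus strand) from a peak 2588 bp upstream of Cdk6, chr17:47727377-47727440 (plus strand) from a peak 2994 bp upstream of the assigned Ccnd3 TSS, and chr11:40638743-40638806 (minus strand) from a peak 70045 bp upstream of Ccng1.
Cdk6 distal: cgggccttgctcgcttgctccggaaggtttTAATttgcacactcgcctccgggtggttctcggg
Ccnd3 distal: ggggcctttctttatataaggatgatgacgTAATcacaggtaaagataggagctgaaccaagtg
Ccng1 distal: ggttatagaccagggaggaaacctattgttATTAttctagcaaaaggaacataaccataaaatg

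Other distal peaks lay in sequence that occurs many times in the genome, and the stretches they share are printed to show this. The first is identical over 153 bp in 2 peaks assigned to Ccng1 (chr11:40924535-40924614, plus strand, and chr11:40830505-40830584, minus strand) and in the distal peak of E2f7 (chr10:110125649-110125728, minus strand), and the 80 bases printed occur 3029 times in mm9 and in 1342 peaks of the list. The second is common to peaks assigned to Ccng2 (chr5:93875276-93875328, plus strand), Ccnh (chr13:84974186-84974238, minus strand) and Cdkn2a (chr4:88872102-88872154, minus strand), and its 53 bases occur 2660 times in mm9 and in 708 peaks of the list.
Ccng1 and E2f7 shared: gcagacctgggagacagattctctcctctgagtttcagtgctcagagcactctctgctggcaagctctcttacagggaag
Ccng2, Ccnh and Cdkn2a shared: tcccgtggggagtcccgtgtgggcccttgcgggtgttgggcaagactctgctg

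Isl1 peaks were assigned to 59.3% of the 54 regulators (46.0 to 71.3%), against 39.1% of 21031 protein-coding genes. Peaks with the midpoint within 1 kb of the assigned TSS, called promoter peaks below, were present at 22 regulators, or 40.7% (28.7 to 54%), against 24.2% of protein-coding genes. The shares were closer among genes with at least 60% GC within 100 bp of the TSS. There, 25 of 48 regulators (52.1%) had any peak within 1 kb of a GENCODE TSS, against 44.4% of all such genes. The part of GC content was not tested. A single peak was assigned to 19 regulators and at least 2 peaks to 13, or 24.1%, against 11.1% of protein-coding genes. With multi-copy peaks left out, 28 regulators (51.9%) had a peak, against 28.7% of protein-coding genes, and 3 (5.56%), Cdk6, Ccng2 and Cdkn1c, had at least 2, against 3.74%. By role, a promoter peak was present at 10 of 11 E2f and pocket protein genes. In the other roles it was present at 1 of 5 G1 genes, 3 of 13 S phase and mitotic genes and 3 of 10 transcriptional genes. It was also present at 3 of 5 of the other cyclins and Cdk5, 1 of 7 Cdk inhibitors and 1 of 3 Myc genes. The roles were chosen with earlier results of these data known.

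**Figure D1:**
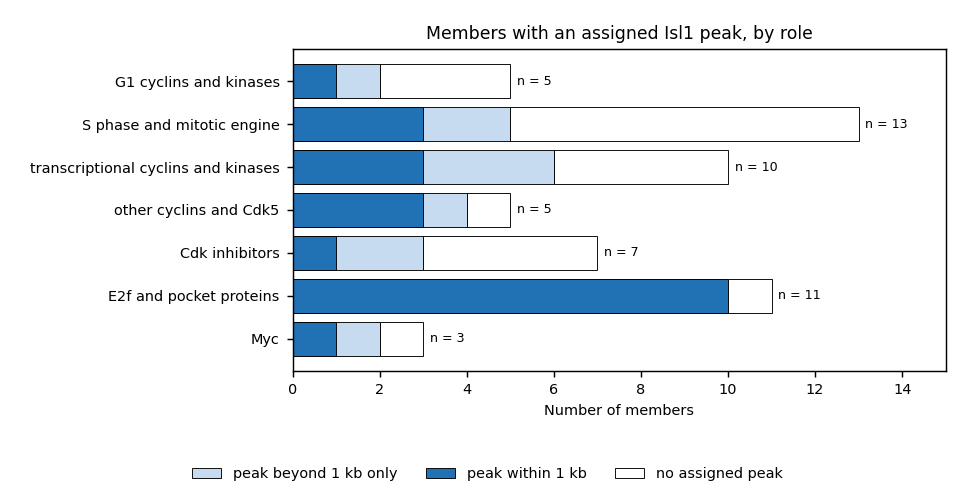
Number of members in each role (horizontal axis) with a peak within 1 kb of the assigned start site (dark), with peaks beyond 1 kb alone (light) and with no assigned peak (white). The dark bar reaches 10 of 11 for the E2f and pocket proteins and 3 of 13 for the S phase and mitotic engine.

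Among the 50 peaks, 22 (44.0%, 31.2 to 57.7%) were promoter peaks, against 38.5% of all peaks, 7 lay between 1 and 10 kb from the TSS and 21 beyond 10 kb. The promoter peak with the farthest midpoint was that of Cdkn1c at 798 bp, and the peaks just outside the limit lay 1367 bp upstream of Cdk6 and 1669 bp downstream of the assigned Myc TSS. In width the member peaks were like the list, with medians of 949 and 947 bp. Promoter peaks were wider, with a median of 1126 bp against 1050 bp for all promoter peaks, and peaks beyond 10 kb narrower, with 836 against 882 bp.

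**Figure D2:**
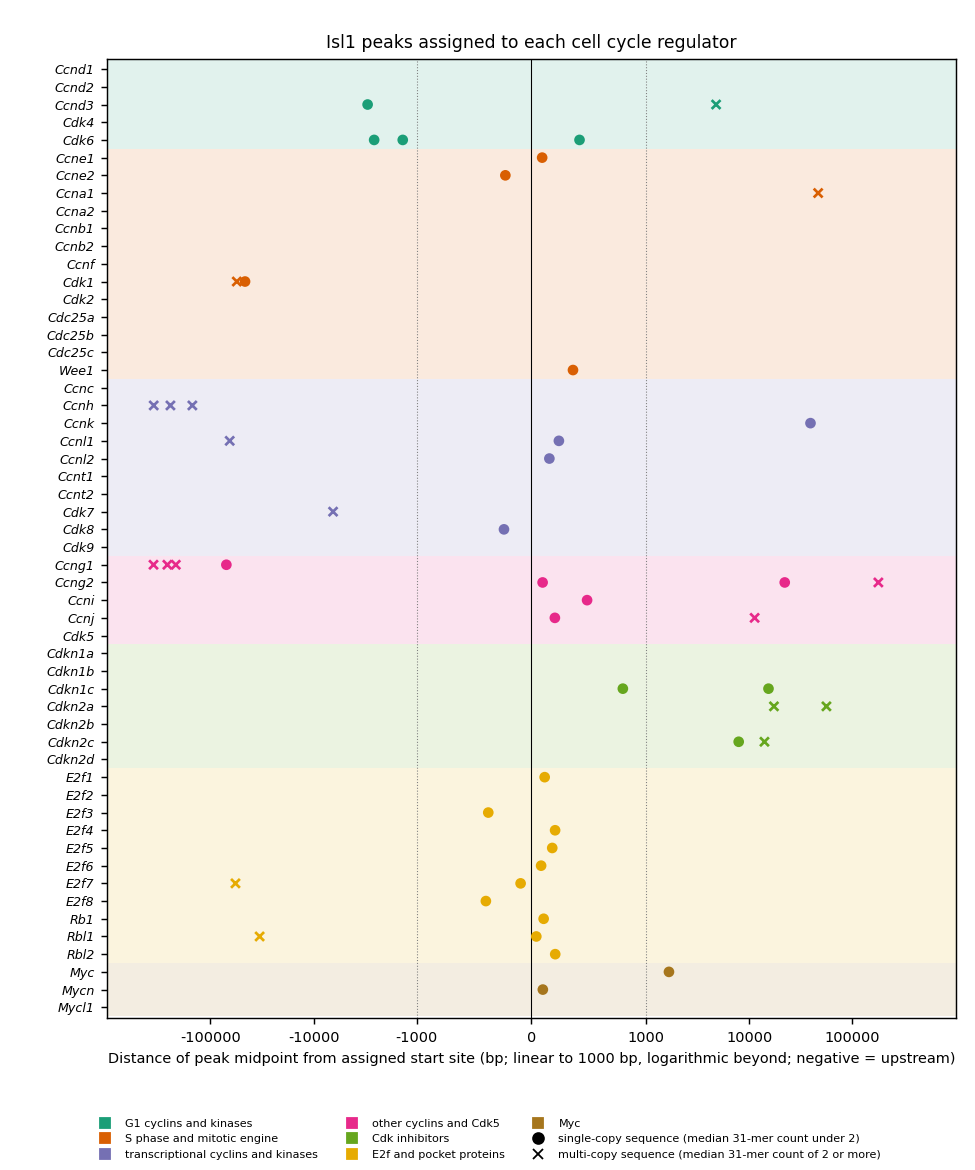
Signed distance in bp from the assigned start site to the midpoint of each of the 50 peaks (horizontal axis, linear to 1000 bp and logarithmic beyond), with a line for each of the 54 members, coloured by role. Circles are single-copy and crosses multi-copy sequence, and no cross lies between the dotted lines at 1000 bp on either side.

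At the G1 cyclins and kinases, which act first in the cycle, 2 of 5 genes had peaks (40%, 11.8 to 76.9%), a share near the 39.1% of all protein-coding genes, and 1 had a promoter peak. Cdk6, a kinase partner of the D-type cyclins, had 3 peaks in a row around its start, at chr5:3340925-3341685 (760 bp wide, 2588 bp upstream), chr5:3341806-3343246 (1440 bp wide, 1367 bp upstream) and chr5:3343839-3344788 (949 bp wide, 420 bp downstream and 1 bp from a GENCODE TSS). No other member had more than 1 peak within 10 kb of its TSS except Ccnd3. Ccnd3, a D-type cyclin, had 1 peak at chr17:47646494-47647063 (569 bp wide, 4778 bp downstream of a TSS, multi-copy) and 1 at chr17:47727117-47727727 (610 bp wide, 2994 bp upstream of another TSS), both in Ccnd3 introns. Ccnd1, Ccnd2 and Cdk4 had no assigned peak. The nearest peak of the list lay 78132 bp from the Ccnd1 TSS (assigned to Fgf4) and 114721 bp from the Ccnd2 TSS, whereas it lay 3742 bp upstream of Cdk4 and was assigned to March9.

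At the S phase and mitotic genes 5 of 13 had peaks (38.5%) and 3 had promoter peaks (23.1%), both close to the shares over all protein-coding genes, 39.1 and 24.2%. These were both E-type cyclins, which start S phase with Cdk2, and Wee1, a kinase that blocks Cdk1 by phosphorylation. The peak at Ccne1 was chr7:38891644-38893186 (1542 bp wide, 94 bp downstream), the peak at Ccne2 chr4:11117504-11119039 (1535 bp wide, 227 bp upstream) and that at Wee1 chr7:117265077-117266795 (1718 bp wide, 363 bp downstream). All 3 were wider than the upper quartile of promoter peaks in the list, which was 1313 bp. Peaks far from the gene were assigned to Cdk1, the mitotic kinase, at chr10:68861326-68862327 (1001 bp wide, 46166 bp upstream) and chr10:68870872-68871470 (598 bp wide, 55511 bp upstream, multi-copy), and to Ccna1, an A-type cyclin of the germ line, at chr3:54812076-54812622 (546 bp wide, 46628 bp downstream, multi-copy). The mitotic cyclins Ccnb1 and Ccnb2, the A-type cyclin Ccna2, Ccnf, the S phase kinase Cdk2 and the Cdk-activating phosphatases Cdc25a, Cdc25b and Cdc25c had none. The closest listed peak lay 8935 bp from a GENCODE TSS of Cdk2 (assigned to Rab5b), 17038 bp from one of Cdc25c and 81980 bp from one of Ccnb2. A single-copy peak assigned to 4931419H13Rik lay 364 bp from a GENCODE TSS of Ccna1.

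The transcriptional cyclins and kinases regulate RNA polymerase or its cofactors more than the cycle itself, and 6 of 10 had peaks (60%, 31.3 to 83.2%), with promoter peaks at 3 (30%, 10.8 to 60.3%). Both intervals included the shares over all protein-coding genes. Promoter peaks lay at Ccnl1, chr3:65761208-65762606 (1398 bp wide, 240 bp downstream), and Ccnl2, chr4:155186219-155187292 (1073 bp wide, 157 bp downstream), a pair of cyclins linked to splicing. The third promoter peak, chr5:147042531-147043494 (963 bp wide, 239 bp upstream), lay at Cdk8, the kinase of the Mediator complex. Ccnl1 had another peak at chr3:65826847-65827475 (628 bp wide, 65014 bp upstream, multi-copy). Ccnh and Cdk7, subunits of the Cdk-activating kinase and of TFIIH, had multi-copy peaks alone. Those of Ccnh were chr13:84973989-84975019 (1030 bp wide, 354486 bp upstream), chr13:85084690-85085145 (455 bp wide, 244073 bp upstream) and chr13:85179085-85179524 (439 bp wide, 149686 bp upstream), all closer to Gm4066 in GENCODE, and that of Cdk7 was chr13:101506899-101507840 (941 bp wide, 6472 bp upstream, in an intron of Mrps36). The peak assigned to Ccnk, the cyclin of Cdk12 and Cdk13, was chr12:109456952-109457538 (586 bp wide, 39297 bp downstream) in an intron of Ccdc85c. Ccnc, the cyclin of Cdk8, and the elongation factor genes Ccnt1, Ccnt2 and Cdk9 had none assigned. A peak assigned to the microRNA gene Mir3960 nevertheless had its midpoint 206 bp from the Cdk9 TSS.

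Among the remaining cyclins and Cdk5 peaks were assigned to 4 of 5 genes (80%, 37.6 to 96.4%), against 39.1% of all protein-coding genes. Promoter peaks were present at 3 (60%, 23.1 to 88.2%), against 24.2%. Both intervals included the shares over all protein-coding genes. Ccng1, a target of p53, had 4 peaks, the most in the set, and all were distal. The 3 farthest were multi-copy. They were chr11:40638670-40638997 (327 bp wide, 70045 bp upstream, single-copy and the narrowest member peak), chr11:40784763-40785878 (1115 bp wide, 216532 bp upstream), chr11:40829505-40830742 (1237 bp wide, 261335 bp upstream) and chr11:40924372-40925524 (1152 bp wide, 356160 bp upstream). The stretch of genome closer to the Ccng1 TSS than to any other TSS was 633 kb, against a median of 62.7 kb over the 54 members and 46.6 kb over all genes. Larger stretches belonged to Cdk6 (3408.7 kb, 3 peaks) and Myc (1442.6 kb, 1 peak). The part of this size in the number of peaks was not tested. Ccng2, which is linked to cell cycle arrest, had a promoter peak at chr5:93696228-93697167 (939 bp wide, 98 bp downstream) and peaks at chr5:93718532-93718894 (362 bp wide, 22114 bp downstream) and chr5:93874802-93875890 (1088 bp wide, 178747 bp downstream, closer to Gm16427 in GENCODE). Ccni, its neighbour on the chromosome, had a promoter peak at chr5:93634462-93635608 (1146 bp wide, 486 bp downstream). Ccnj had a promoter peak at chr19:40905333-40906616 (1283 bp wide, 205 bp downstream) and an intronic peak at chr19:40916504-40917631 (1127 bp wide, 11298 bp downstream, multi-copy). Cdk5, a kinase known from neurons, had none, and the closest peak lay 1691 bp away and was assigned to Slc4a2.

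Of the 7 Cdk inhibitors 3 had peaks (42.9%, against 39.1% of all protein-coding genes), and Cdkn1c alone had a promoter peak (14.3%, against 24.2%). That peak, chr7:150644737-150647577, was 2840 bp wide and its midpoint lay in the coding sequence 798 bp downstream of the TSS. A second Cdkn1c peak was chr7:150631028-150632101 (1073 bp wide, 15391 bp downstream), and both were single-copy. Cdkn2c, an inhibitor of Cdk4 and Cdk6, had peaks at chr4:109329642-109330482 (840 bp wide, 7915 bp downstream) and chr4:109323435-109324384 (949 bp wide, 14068 bp downstream, multi-copy). Cdkn2a, another such inhibitor, had 2 multi-copy peaks at chr4:88910470-88910948 (478 bp wide, 17387 bp downstream) and chr4:88871579-88872443 (864 bp wide, 56085 bp downstream). A single-copy peak assigned to Gm12610 lay 343 bp from a Cdkn2a TSS and 16041 bp from that of Cdkn2b. Cdkn1a and Cdkn1b, inhibitors of the same family as Cdkn1c, had no assigned peak, nor had Cdkn2b and Cdkn2d. The closest peaks to these 4 lay between 13254 bp (Cdkn1a) and 90021 bp (Cdkn1b) from the TSS.

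At the E2f and pocket protein genes, the transcription factors and their repressive partners, a promoter peak was present at 10 of 11 (90.9%, 62.3 to 98.4%). The share over all protein-coding genes was 24.2%. The E2f activators E2f1 and E2f3 had peaks at chr2:154394959-154396065 (1106 bp wide, 116 bp downstream) and chr13:30075605-30077668 (2063 bp wide, 376 bp upstream). The E2f factors that work with pocket proteins as repressors, E2f4 and E2f5, had peaks at chr8:107821440-107822101 (661 bp wide, 207 bp downstream) and chr3:14578416-14579291 (875 bp wide, 182 bp downstream). E2f6, E2f7 and E2f8, which repress without pocket proteins, had peaks at chr12:16817392-16818321 (929 bp wide, 85 bp downstream), chr10:110181885-110182970 (1085 bp wide, 94 bp upstream) and chr7:56136196-56137421 (1225 bp wide, 397 bp upstream). All classes of E2f were thus represented, and E2f2 was the member without a peak, with the closest one 109895 bp from its TSS.

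The pocket protein genes Rb1, Rbl1 and Rbl2 each had a promoter peak, at chr14:73724726-73726257 (1531 bp wide, 107 bp downstream), chr2:157029639-157030816 (1177 bp wide, 43 bp downstream) and chr8:93593904-93594424 (520 bp wide, 208 bp downstream). Distal multi-copy peaks were also assigned to E2f7, chr10:110124928-110125764 (836 bp wide, 57175 bp upstream), and to Rbl1, chr2:157063240-157063964 (724 bp wide, 33332 bp upstream, in an intron of 4922505G16Rik). The GC content within 100 bp of the TSS was taken at the GENCODE start with the highest value for each gene. It was 57% at E2f2 and 63 to 81.5% at the 10 genes with a promoter peak. Of all GENCODE protein-coding genes with at least 60%, 44.4% had a peak within 1 kb. The part of GC content in the presence of a peak was not tested.

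Of the Myc genes, Mycn had a promoter peak at chr12:12948198-12948887 (689 bp wide, 100 bp downstream). The Myc peak, chr15:61818346-61818785 (439 bp wide), lay 1669 bp downstream of the assigned TSS and 24 bp from another TSS of Myc in GENCODE. Mycl1 had no line under this symbol, but a peak listed under its current symbol, Mycl, lay 356 bp from its TSS. With any peak within 1 kb of any GENCODE TSS counted, whatever symbol the list gave, all 3 Myc genes were included and the count over the set rose from 22 to 27 of 54, against 26.1% of GENCODE protein-coding genes. The 5 genes gained were Myc, Mycl1, Cdk9, Cdkn2a and Ccna1, the last 364 bp from a peak assigned to 4931419H13Rik.

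**Figure D3:**
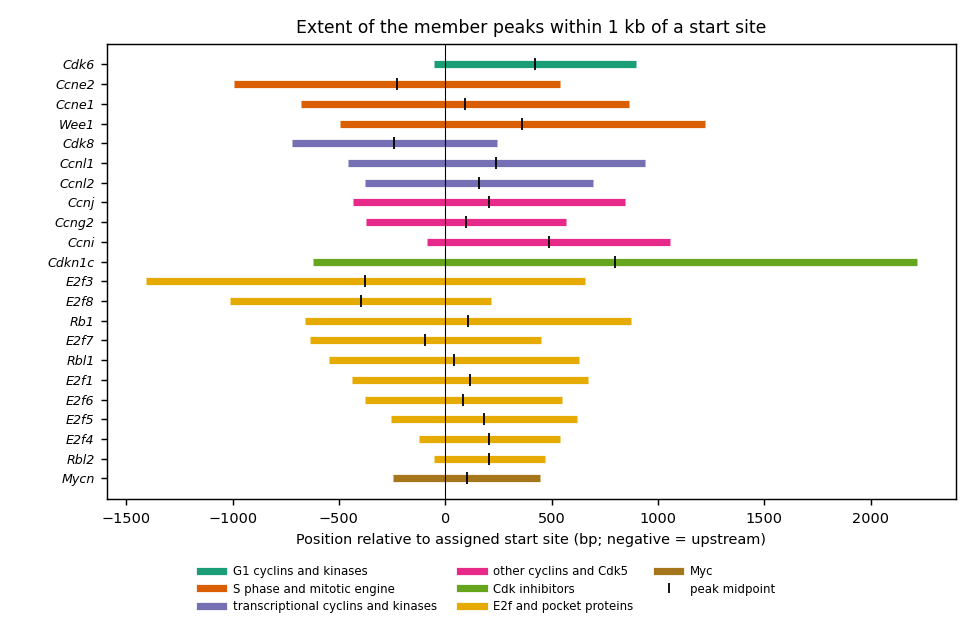
Upstream and downstream edges of the 22 promoter peaks relative to the assigned start site in bp (horizontal axis, negative upstream), 1 bar per gene coloured by role, with the midpoint as a black tick. Every bar crosses 0, and the Cdkn1c bar reaches from -622 to 2218 bp.

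All 22 promoter peaks of the set covered the assigned TSS, as did 93.9% of promoter peaks in the list. Midpoints lay downstream of the assigned TSS in 17 of the 22 (77.3%), against 80.9% of all promoter peaks, and the 5 upstream ones were E2f3, E2f7, E2f8, Ccne2 and Cdk8. Relative to the closest GENCODE TSS, E2f8 and Cdk8 lay downstream instead, and E2f1, Ccni and Ccnl2 upstream. The upstream edge of the 22 peaks lay between -52 bp at Rbl2 and -1408 bp at E2f3, relative to the assigned TSS. By the GENCODE annotation 12 of the 22 midpoints fell in a UTR, 7 in a coding exon, 1 in an intron (E2f3) and 2 outside the annotated transcript (E2f7 and Ccne2). Of the 28 peaks beyond 1 kb, 21 midpoints were intergenic and 7 intronic.

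The base composition of the peaks followed their distance class. The central 200 bp of the promoter peaks had a mean GC content of 73.6% ± 4.16 (SD over 22 peaks), against 73.7% ± 5.88 over all promoter peaks, and ranged from 67% at Wee1 to 82% at Cdk8. Peaks beyond 10 kb had a mean of 60.3% ± 9.70 (SD over 21 peaks), against 61.6% ± 7.88 over all such peaks, with the lowest value, 38.5%, at the Ccng1 peak 70045 bp upstream. Within 100 bp of the TSS, again at the start with the highest GC content, the regulators had a median of 70.8%. The median over all protein-coding genes was 61.5%, and 48 of 54 regulators had at least 60%. Of those 48 genes 25 (52.1%) had a peak within 1 kb, against 44.4% of all genes with at least 60% GC.

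**Figure D4:**
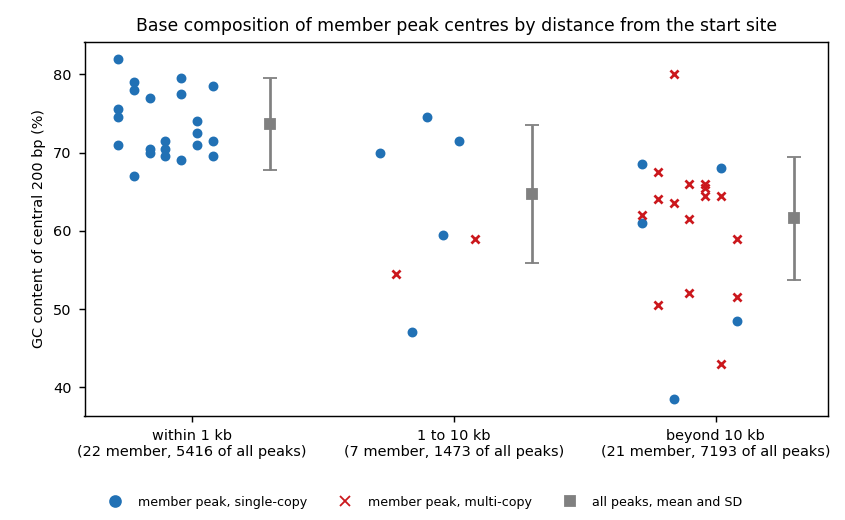
GC content in percent of the central 200 bp of each member peak (vertical axis) in the 3 distance classes, with single-copy peaks as circles, multi-copy peaks as crosses and the mean and SD of all peaks of the class as grey squares with bars. Member promoter peaks lie between 67 and 82%, and the member peaks beyond 10 kb spread from 38.5 to 80%.

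Many of the distal peaks lay in repeated sequence. None of the 22 promoter peaks was multi-copy, which allows a share of up to 13.6%, against 2.62% of all promoter peaks, whereas 16 of the 21 peaks beyond 10 kb were (76.2%, 54.9 to 89.4%), against 81.2% of all such peaks. The 5 single-copy peaks beyond 10 kb were those of Ccng1 (70045 bp upstream), Ccng2 (22114 bp downstream), Ccnk, Cdk1 (46166 bp upstream) and Cdkn1c (15391 bp downstream). The highest medians were 3352.5 copies at the Ccng1 peak 261335 bp upstream, 3215.5 at the Ccng2 peak 178747 bp downstream and 2933.5 at the distal E2f7 peak. The peaks assigned to Ccna1, Ccnh, Cdk7 and Cdkn2a were all multi-copy. Whether a read from such sequence fits many places depends on its length. With 75-mers in place of 31-mers, 22% of member peaks were multi-copy in place of 36.0%, and the Cdk7 peak was single-copy. The part of read placement in these peaks was not tested.

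Peaks of different regulators shared this repeated sequence. There were 20 pairs of multi-copy member peaks with at least 1 identical 31-mer, and these included pairs in which both peaks were assigned to Ccng1. The number shared went down to 1, between the Cdk7 peak and the Cdkn2c peak 14068 bp downstream. The 2 Ccng1 peaks farthest from the gene shared 681 31-mers with each other, with 372 identical bp in a row, and shared 411 and 405 with the distal E2f7 peak on another chromosome. The Ccng2 peak 178747 bp downstream and the Ccnh peak 354486 bp upstream shared 372 31-mers and 212 identical bp. These peaks do not count as independent observations of their genes.

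E2F strings were found in member promoter peaks at a higher share than in the list. In the central 200 bp they occurred in 4 of 22 promoter peaks (18.2%, 7.31 to 38.5%), those of E2f1, Rbl1, Ccne2 and Ccnj, against 2.40% of all 5416 promoter peaks. Over the whole peak they occurred in 9 of 22 (40.9%, 23.3 to 61.3%), with E2f3, E2f7, E2f8, Rb1 and Mycn added, against 12.9% of all promoter peaks. In the central 100 bp 0 of 22 held one, which allows a share of up to 13.6%. The share over all promoter peaks was not taken in that window, so this count has no comparison. None of the 21 peaks beyond 10 kb held one over its whole length, which allows a share of up to 14.3%, against 1.57% of all such peaks.

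The strings also belonged to promoters of the set that had no promoter peak by the assigned TSS. The window used GENCODE starts instead, so a gene without a promoter peak could still have a peak near one of these. In the window from 250 bp before to 50 bp after any GENCODE TSS, an E2F string was present at 6 of the 22 genes with a promoter peak (27.3%, 13.2 to 48.2%) and at 6 of the 32 without (18.8%, 8.89 to 35.3%), against 3.86% of all protein-coding genes. The 6 without were Cdc25a, Cdk1, Cdk2, Cdkn2a, E2f2 and Myc, so the E2f2 promoter held the string and no peak. Myc and Cdkn2a did have a peak near a GENCODE TSS, 24 and 343 bp away. The difference between the groups was not tested.

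CCAAT was present in the central 200 bp of 3 of 22 member promoter peaks (13.6%, 4.75 to 33.3%), those of E2f7, Ccne2 and Cdkn1c, against 8.03% of all promoter peaks. In the promoter window it occurred at 8 of the 22 genes with a promoter peak (36.4%, 19.7 to 57.0%) and at 23 of the 32 without (71.9%, 54.6 to 84.4%), with 47.0% over all genes. The difference between the groups was not tested. The 23 included Ccnb1, Ccnb2, Cdk1, Cdc25b, Cdc25c, Ccnf and Cdk2. Because the groups followed the assigned TSS, they also included Ccna1, Cdk9, Cdkn2a and Myc, each with a peak within 1 kb of a GENCODE TSS.

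TAAT was present in the central 200 bp of 8 of the 50 member peaks (16.0%, 8.34 to 28.5%), against 19.4% of all peaks. All 4 Ccng1 peaks held it, as did the distal E2f7 peak, which shares sequence with 3 of them, and the peaks upstream of Cdk6 and Ccnd3 shown above. Rb1 was the 1 promoter peak of 22 with TAAT in its centre, against 5.87% of all promoter peaks. In the promoter window TAAT occurred at 8 of the 22 genes with a promoter peak (36.4%, 19.7 to 57.0%) and at 18 of the 32 without (56.2%, 39.3 to 71.8%), against 65.3% of all genes. Among the 18, Myc and Mycl1 had a peak within 1 kb of a GENCODE TSS. Such a short string is frequent, and over whole peaks it occurred in 78.0% of member peaks and 73.8% of all peaks.

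**Figure D5:**
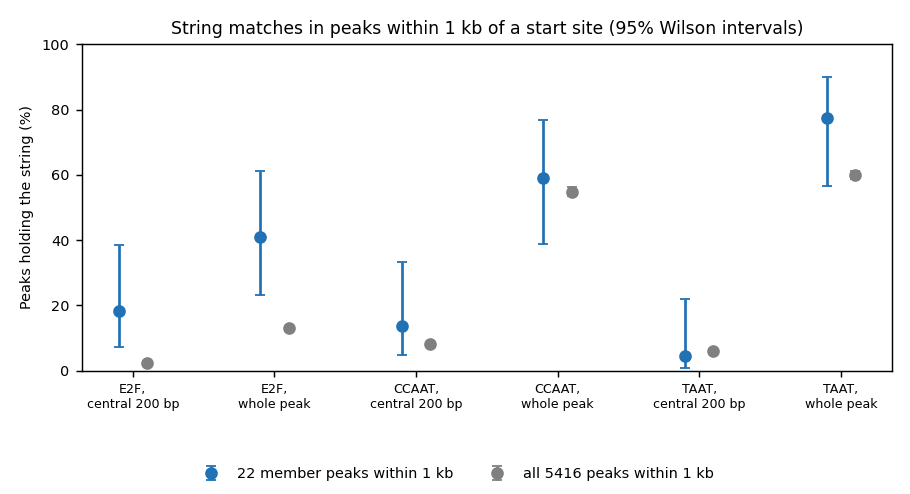
Share in percent of promoter peaks that hold each string (vertical axis), in the central 200 bp or the whole peak, for the 22 member peaks (blue) and all 5416 promoter peaks (grey), with 95% Wilson intervals. For the E2F strings the member intervals, 7.31 to 38.5% and 23.3 to 61.3%, lie above the values of the list, 2.40 and 12.9%, and for CCAAT and TAAT they include them.

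Other genes of the cell cycle machinery were counted for comparison in 7 lists with 84 genes, chosen with earlier results of these data known. Of these, 30 (35.7%) had an assigned peak, against 39.1% of all protein-coding genes, and 25 (29.8%) a promoter peak, against 24.2%. Promoter peaks lay at 7 of 10 E2f partners and MuvB complex genes (Tfdp1, Tfdp2, Lin9, Rbbp4, Mybl1, Mybl2 and Foxm1), which act with E2f and pocket proteins on promoters, and at 4 of 8 Myc partners (Max, Mxd1, Mxd3 and Mxi1). Of 16 further cyclins and kinases 8 had one. The genes that E2f proteins switch on for origin licensing and DNA replication, such as those of the Mcm helicase, had a peak at 0 of 19, which allows a share of up to 15.8%. At least 60% GC within 100 bp of the TSS, at the start with the highest value, was found at 16 of these 19. It was also found at 8 of the 10 E2f partners and MuvB complex genes, 8 of the 8 Myc partners and 14 of the 16 further cyclins and kinases. Of all genes with that content 44.4% had a peak within 1 kb. The reason for the absence of peaks at the 19 genes was not tested, nor was the part of GC content in the other lists. Mitotic kinases and spindle checkpoint genes had promoter peaks at 2 of 14 (Fzr1 and Pkmyt1), turnover genes at 3 of 8 (Cul1, Fbxw7 and Btrc) and damage checkpoint genes at 1 of 9 (Mdm2).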

How the data were processed

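Isl1 ChIP-Seq had been made from 2 ChIP replicates and 1 input sample, grouped by their titles. According to the methods of the study and the submitters' processing notes, the authors mapped reads to mm9 with bowtie2 at default settings, removed duplicates with Picard 1.136, called peaks with MACS14 without a fragment model, dropped blacklisted regions and kept the areas common to both replicates with bedtools 2.15. HOMER gave each peak its closest TSS. The deposited list holds positions, distances in bp and gene symbols, with no count, score or signal, so no test was run. Its 14165 lines gave 14082 distinct peaks. Starts may count from 0 or 1.

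Sequence came from the NCBI m37 assembly (mm9) and exons, starts and promoters from GENCODE vM1 on it. A RefSeq table of the GRCm38 assembly gave names and the protein-coding class alone. Copy number, GC content and strings were computed on the central 200 bp of each peak with Python 3.11.15, pandas 2.3.3 and numpy 2.4.6, after the copy count had been tested on simulated data. Every one of the 54 genes is named, by role. These genes, the roles and the other cell cycle lists were chosen with earlier results of these data known. Columns left out of use numbered 0. Alternatives were other distances, widths, windows, copy measures and gene assignments.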

Additional observations from a re-analysis of the deposited data

How the results depend on the processing

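Over 46 alternative values of 10 results, 34 stayed within 1.5 times the count, or within the 95% interval of the share, mean or median, and 12 moved. Some of the 34 could not move. No member peak came from a repeated line, so keeping such lines changed nothing. None of the member promoter peaks was multi-copy, so their counts and string shares were the same with single-copy peaks alone. Counting single-copy peaks alone gave 32 peaks in place of 50, a promoter share of 68.8% in place of 44.0% and a mean GC content of 69.6% in place of 66.4%, and whole peaks gave 60.4%. Requiring at least 2 peaks left 13 members of 32, and at least 2 single-copy peaks 3. With 75-mers, 22% of member peaks were multi-copy in place of 36.0%. Strings depended on the window. E2F strings in promoter peaks went from 18.2% to 0% in the central 100 bp, to 31.8% in the central 400 bp, which is inside its wide interval, and to 40.9% over whole peaks, CCAAT from 13.6% to 59.1% over whole peaks, and TAAT in all member peaks from 16.0% to 34.0% in the central 400 bp and 78.0% over whole peaks. The whole-peak windows, the count of members with 2 single-copy peaks, the count by any GENCODE TSS and the count of Mycl as Mycl1, which gave 33 members with a peak, were chosen after seeing the data. Members with a promoter peak ranged from 21 (within 500 bp) to 27 (GENCODE starts). Leaving out a replicate was not possible, since the list was made from the 2 together. No paired analysis was possible because the input has no peak list of its own and no test was run. Depth is unknown, and a gene without a listed peak may hold binding below the threshold of the peak caller in either replicate.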
